A study of Mus musculus with 8 samples.

Results

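The genes described here encode 43 proteins of the lysosome: the hydrolases that digest engulfed material with their soluble cofactors, proteins of the lysosomal membrane, subunits of the proton pump, and the transcription factor Tfeb. Members were chosen by gene symbol, and where the platform annotation assigned a gene several probe sets, the one of highest average value over the 8 arrays was read. Of the 43, 42 had a probe set, each naming that gene alone, among 23410 annotated probe sets. The expression of Atp6v0c was not analysed here, and this gene enters only the promoter counts. Arsb had 2 probe sets and every other member 1.

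Lysosomes break down the red cells and other blood cells that macrophages engulf. The vacuolar ATPase (V-ATPase) pumps protons into the organelle, hydrolases with acidic optima cleave sugars, sulfates, lipids and peptides, and membrane proteins hold the organelle together and export the products. Splenic macrophages carry out this digestion continuously in the turnover of aged red cells. Tfeb, a basic helix-loop-helix factor, binds an E-box with the core CACGTG near the start sites of many lysosomal genes.

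Hemophagocytes, macrophages holding engulfed blood cells, came from mice given intraperitoneal CpG1826, an oligonucleotide agonist of Toll-like receptor 9, at 37.5 ug together with 200 ug of the antibody 1B1.3A, which blocks the IL-10 receptor. Resting macrophages came from mice given 200 uL of PBS. Both groups were wild-type male C57Bl/6j mice of 8 weeks that received 4 injections, given on alternate days, and each group had 4 arrays (replicates 2, 3, 5 and 6 of hemophagocytes, and 3, 4, 5 and 6 of resting macrophages). Laser-captured splenic cells, 20 per mouse, were pooled and their RNA was amplified before hybridization. Which animals contributed to which array is not given, so that p-values here reflect only how far these arrays scatter, and some of that scatter may be technical. Treated mice gave no arrays of macrophages without engulfed cells, so the engulfed state and the treatment cannot be told apart.

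Array medians lay between 6.10 and 6.17 on the log2 scale in which all values are given. Hemophagocytes 3 and 5 stood apart, with 449 and 350 of the annotated probe sets more than 1 log2 unit above their own median over the 8 arrays, against 20 to 80 on each other array. Some array lay that far up in 3.16% of all probe sets, and among the lysosomal genes in 1, Cd63. Of 10 measured macrophage markers, 9 had their highest value on hemophagocyte 5, where the list averaged 8.05, against 6.63 to 7.44 on the other hemophagocyte arrays and 6.76 to 6.97 on resting arrays. Adgre1, which encodes the macrophage antigen F4/80, reached 7.38 on hemophagocyte 5 and 5.53 to 5.89 elsewhere. Lyz2, the macrophage lysozyme, ranged from 7.45 to 8.89 in resting cells. Its hemophagocyte values lay on both sides of that range, 9.95 and 9.96 for replicates 3 and 5 but 5.86 and 6.55 for replicates 2 and 6. The 9 red pulp macrophage markers averaged 6.48 to 6.87 on hemophagocyte and 6.57 to 6.72 on resting arrays. Globin probe sets, each of which names several globin genes, were lowest on hemophagocyte 2, at 5.85 for Hbb-b1 against 9.59 to 11.71 on the other arrays. The 7 platelet markers averaged 7.23 and 7.03 on hemophagocytes 3 and 5 and 6.54 to 6.87 elsewhere, and the 10 neutrophil markers 6.57 on hemophagocyte 3 and 6.06 to 6.26 elsewhere. These averages rest on few genes, Pf4 in the first list and S100a8 and S100a9 in the second. The median platelet marker lay -0.03 from its resting mean on both hemophagocytes 3 and 5. The median neutrophil marker lay -0.06 from its resting mean on hemophagocyte 3. The median change was -0.17 for 8 natural killer cell markers and -0.16 for 7 dendritic cell markers, and -0.05 to -0.03 for the T cell, B cell and plasma cell lists. None of these markers passed the test. The part of these markers in the lysosomal values was not tested.

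Promoters of the lysosomal genes carried the core CACGTG more often than promoters at large. RefSeq windows of 300 bases (250 before and 50 after a start site, GRCm38.p6) were at hand for 37 of the 43 members, and the string TCACGTG, searched on both strands, occurred in those of 12 (32.4%) against 4.29% of 27025 genes. Counting every window rather than every gene, 3.77% held it. The bare core CACGTG, which lies inside the longer string, was found in the same 12 members and in 8.09% of all genes. The 12 members were the glycosidases Gaa, Gla, Glb1 and Naglu, the sulfatases Arsa and Sgsh, the membrane proteins Cln3, Lamp1 and Mcoln1, and the V-ATPase subunits Atp6v0b, Atp6v0d1 and Atp6v1a. Stretches of 80 bases upstream of the start site are shown for 5 of them, from both membrane and hydrolase genes, to show how the string is placed. They run 5′ to 3′ on the gene's strand, with TCACGTG in either orientation in capitals.
Lamp1, chr8:13159081-13159160 (+): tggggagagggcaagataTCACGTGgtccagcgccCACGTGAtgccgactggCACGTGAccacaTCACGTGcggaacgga
Mcoln1, chr8:3500419-3500498 (+): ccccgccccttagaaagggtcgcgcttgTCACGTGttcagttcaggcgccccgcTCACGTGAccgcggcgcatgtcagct
Naglu, chr11:101069994-101070073 (+): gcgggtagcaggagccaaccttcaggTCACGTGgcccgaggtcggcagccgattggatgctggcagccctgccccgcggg
Glb1, chr9:114400998-114401077 (+): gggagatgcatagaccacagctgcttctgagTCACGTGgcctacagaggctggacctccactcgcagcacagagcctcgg
Gaa, chr11:119267783-119267862 (+): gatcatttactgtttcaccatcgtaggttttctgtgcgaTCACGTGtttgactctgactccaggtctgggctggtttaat
Lamp1 held 4 copies of the core within the 80 bases and Mcoln1 2, and the others shown held 1. The letters are a description of these windows and show no binding.

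No lysosomal gene was called higher or lower in hemophagocytes. Of the 42 measured members 0 passed limma with Benjamini-Hochberg adjustment over all 23410 probe sets at a threshold of 0.05, where 1 probe set passed in all (0.00427%), and the members' adjusted p-values ran from 0.74 to 0.998. At an unadjusted p under 0.05, 2 members were higher, Npc2 and Npc1, and 0 were lower, beside 1.81% of all probe sets higher and 4.75% lower. In 0 members did the 4 hemophagocyte values all lie above or all below the resting values, which happened in 1.02% (higher) and 2.88% (lower) of all probe sets. The changes were small: all but 1 of the members lay between -0.17 and 0.43. The 95% interval of the change lay within 1 log2 unit of 0, that is within a doubling or a halving, for 41 of 42 members and within 0.5 log2 units for 37. Cd63 was the exception. Most members' values were not far above array background, which can compress differences. The olfactory and vomeronasal receptor probe sets, genes of sensory neurons taken as a gauge of background, averaged 5.76 to 6.16 per array, and 23 to 32 members lay above that mean on an array. Their 95th percentile was passed by Cd63 on hemophagocyte 5 and Grn on hemophagocyte 3, and by no other member on any array. The mean of this gauge is not a floor, since Cd63 stood at 3.46 to 4.05 on resting arrays.

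**Figure D1:**
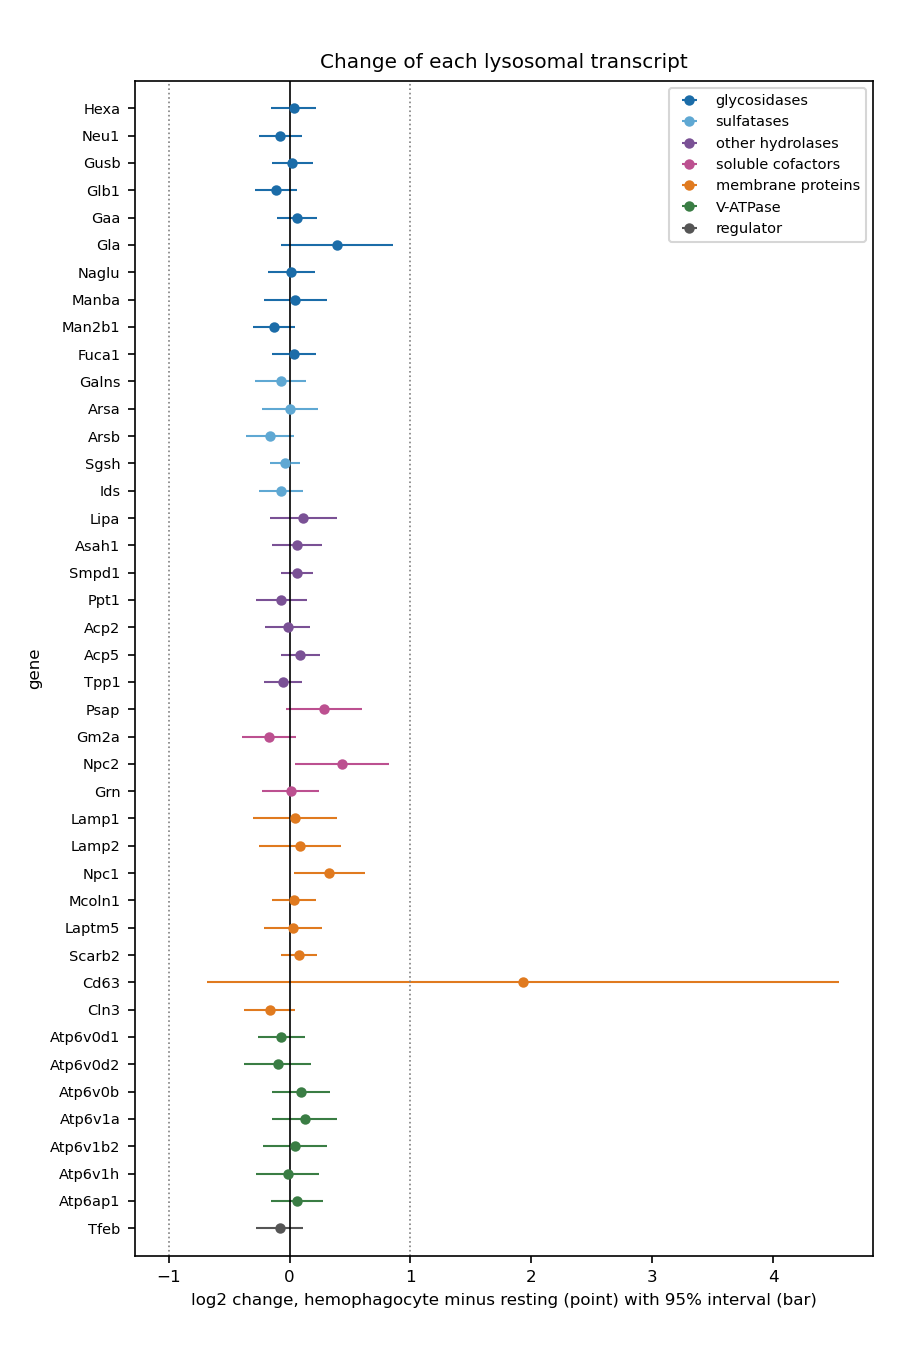
Log2 change of each of 42 lysosomal genes (horizontal axis; hemophagocyte minus resting macrophage, 4 arrays each) with its 95% interval from limma, coloured by role, with dotted lines at -1 and 1. Every interval but that of Cd63 lies between the dotted lines, and those of Npc2 and Npc1 alone leave out 0.

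The members' values leaned slightly upward against the rest of the table, and the lean in their share above 0 was not seen without hemophagocyte 5. The median change over the 42 members was 0.03 with 26 above 0 (61.9%), beside a median of -0.03 and 37.4% above 0 over all probe sets. Under cyclic loess normalization the shares above 0 were 69.0% and 51.3%. Without hemophagocyte 5 the members' median was -0.02 with 16 of 42 above 0 (38.1%), beside a median of -0.036 and 38.5% above 0 over all probe sets. Without hemophagocytes 3 and 5 the members' median was -0.01 with 45.2% above 0, beside -0.015 and 44.5%. Without resting macrophage 3 it was -0.0063 with 21 of 42 above 0, beside a median of -0.03 and 38.9% above 0 over all probe sets, so that the members still lay higher. Hemophagocyte 5 held the highest value of 12 members (28.6%) but of 10.4% of all probe sets. Hemophagocyte 3 held the highest value of 8 members (19.0%, against 10.3% of all probe sets) and the lowest of 13 (31.0%, against 32.3%). On hemophagocyte 5, 6 members (14.3%, against 2.73% of all probe sets) lay more than 0.5 log2 units above their own median: Cd63, Gla, Psap, Npc2, Lamp1 and Lamp2. On hemophagocyte 3 only Cd63 did, and on the remaining 6 arrays no member did. Hemophagocyte 5 is also the array on which the macrophage markers averaged highest, and the part of that in the lysosomal values was not tested. In pooled captured cells, fewer cells carrying a transcript and less of it per cell cannot be told apart.

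**Figure D2:**
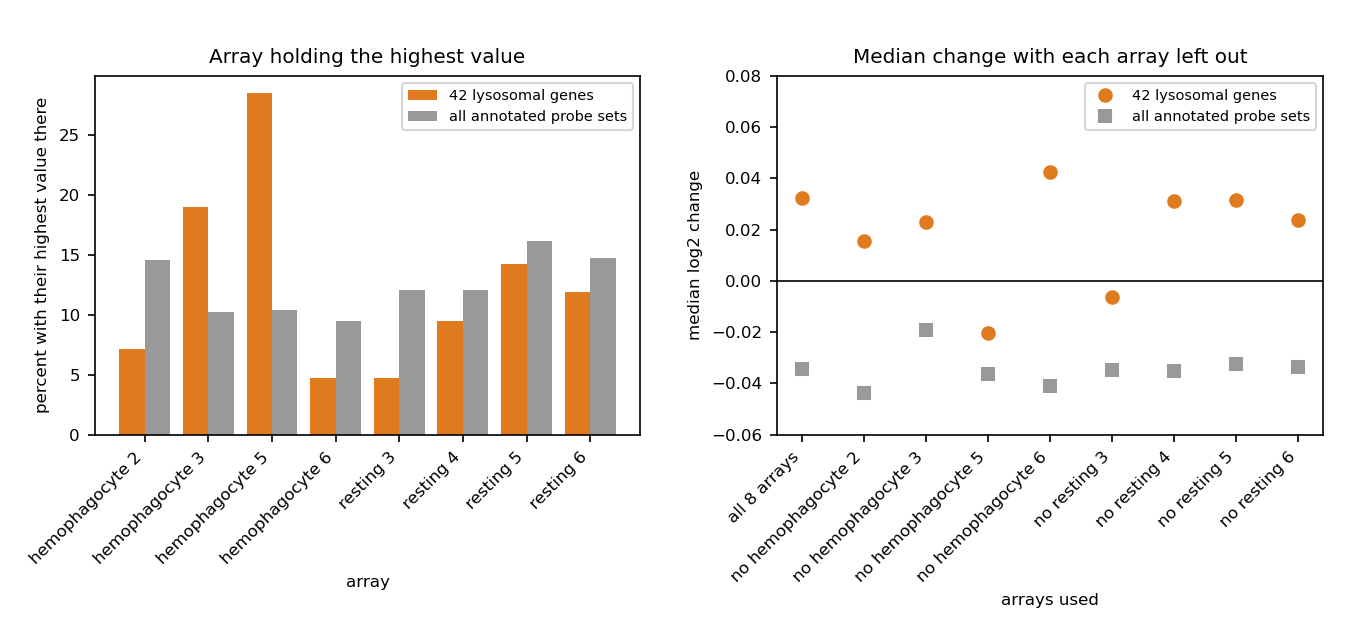
Left, the percent of 42 lysosomal genes (orange) and of all annotated probe sets (grey) whose highest value fell on each array. Right, the median log2 change (hemophagocyte minus resting) of the same sets with all arrays and with each array left out. Hemophagocyte 5 held the highest value of 28.6% of the lysosomal genes, and leaving it out took their median from 0.03 to -0.02. The median of all annotated probe sets went from -0.034 to -0.036.

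**Figure D3:**
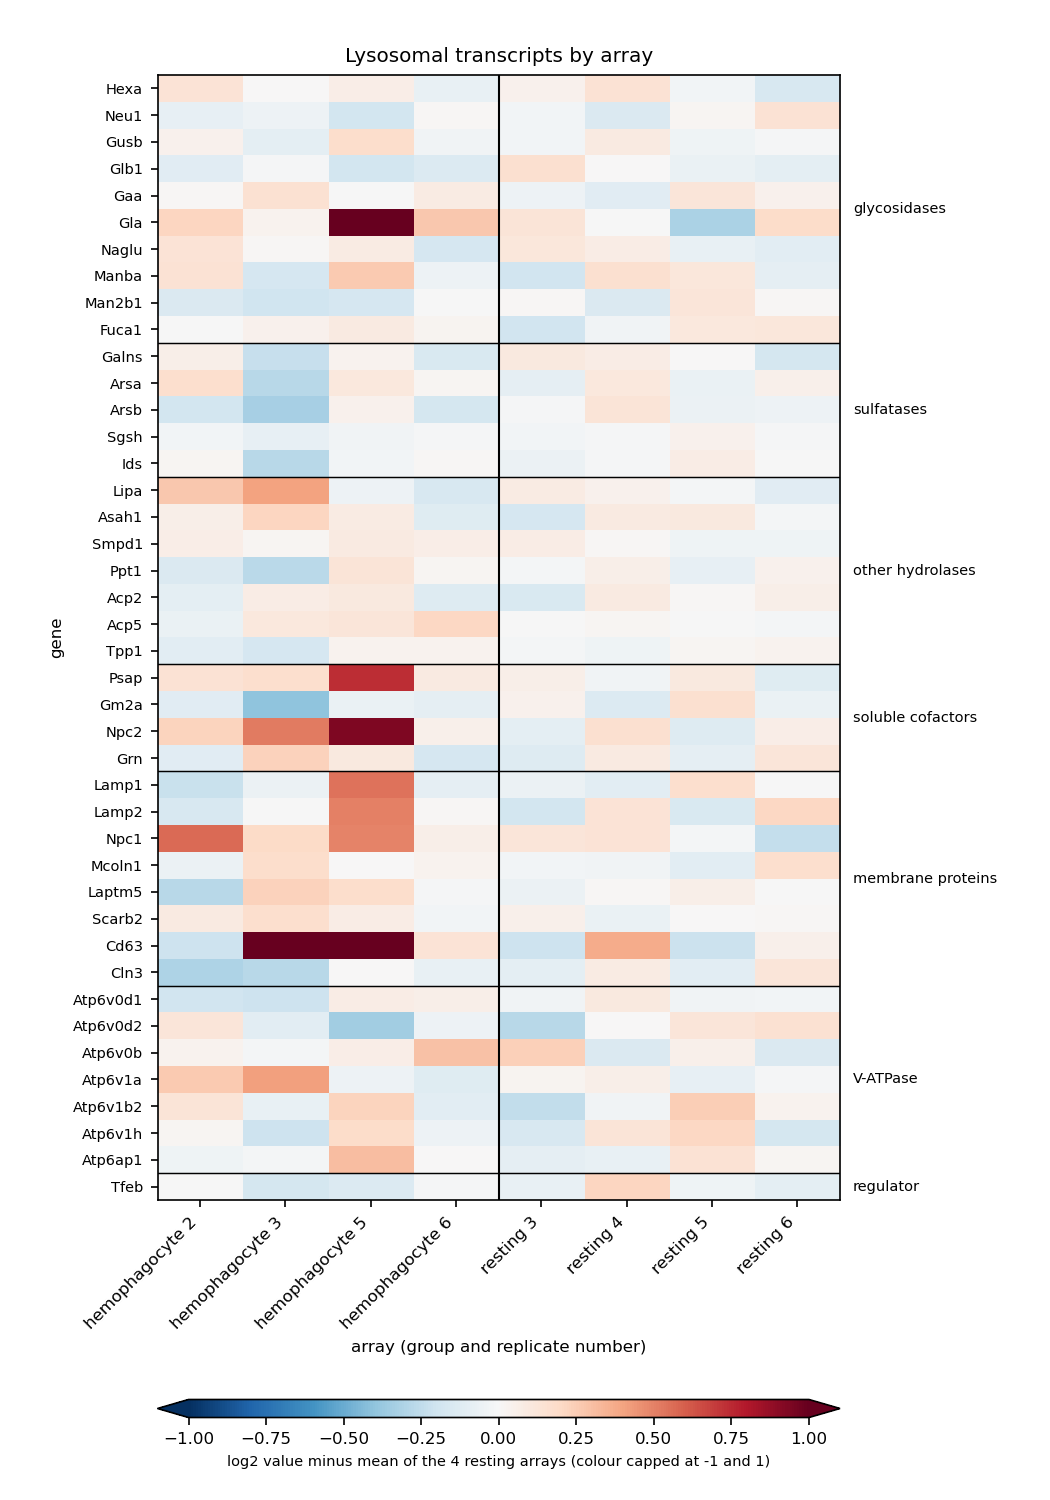
Log2 value of each lysosomal gene on each array minus the mean of the 4 resting arrays, with genes in rows by role and arrays in columns. The colour is capped at -1 and 1, so that Cd63 on hemophagocytes 3 and 5 and Gla on hemophagocyte 5 lie beyond the scale. The strong red cells are few and lie mainly in the column of hemophagocyte 5, and most rows are pale across all 8 columns.

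Hydrolases showed no shift as a class in these values. Their 22 members had a median change of 0.0088, with 12 above 0. Asah1 and Ppt1 exceeded the average of the background gauge on 0 of 8 arrays, Gla, Lipa and Acp2 on 1 and Gusb on 2. Hexa and Manba exceeded it on 5 and the other hydrolases on all 8. In the dim genes low signal can compress differences. Of 10 glycosidases, which remove sugars from glycoproteins and glycolipids, 7 lay above 0 with a median of 0.03. Gla, alpha-galactosidase A, stood at 5.57, 5.39, 6.39 and 5.62 on hemophagocytes 2, 3, 5 and 6 and at 5.48, 5.35, 5.04 and 5.54 on resting macrophages 3, 4, 5 and 6. Its high value was that of hemophagocyte 5. Hemophagocytes 2 and 6 lay just above the highest resting value and hemophagocyte 3 within the resting range. The change was 0.39 (SE 0.21; limma adjusted p = 0.74), and 0.17 without hemophagocyte 5. Man2b1, the lysosomal alpha-mannosidase, stood at 6.80, 6.75, 6.78 and 6.94 in hemophagocytes and at 6.95, 6.80, 7.07 and 6.96 on resting arrays, a change of -0.13 (SE 0.08). Glb1, beta-galactosidase, stood at 6.50, 6.60, 6.43 and 6.47 against 6.78, 6.62, 6.54 and 6.51, a change of -0.11 (SE 0.08). The groups overlapped in both genes, and neither passed. The remaining glycosidases, Hexa, Neu1, Gusb, Gaa, Naglu, Manba and Fuca1, had changes of -0.08 to 0.06.

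Sulfatases, which remove sulfate from glycosaminoglycans and sulfolipids, had a median change of -0.07 with 1 of 5 above 0. Arsb, arylsulfatase B, stood at 7.20, 7.05, 7.43 and 7.21 in hemophagocytes and at 7.37, 7.51, 7.32 and 7.33 on resting arrays, and its change of -0.16 (SE 0.09; limma adjusted p = 0.74) was -0.08 in its dimmer probe set. Ids, iduronate-2-sulfatase, stood at 7.01, 6.71, 6.96 and 7.01 against 6.94, 6.99, 7.07 and 6.99. Galns, which acts on keratan sulfate, stood at 6.67, 6.37, 6.64 and 6.45 against 6.70, 6.68, 6.61 and 6.43. The groups overlapped in all 5 sulfatases, Arsa and Sgsh included, and hemophagocyte 3 gave the lowest value of each. It lay 0.28 below the resting mean in the median sulfatase. Hemophagocyte 3 also held the lowest value of 32.3% of all probe sets. Without that array the changes were -0.105 for Arsb, -0.025 for Sgsh, -0.020 for Galns, 0.001 for Ids and 0.097 for Arsa.

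The 7 hydrolases of lipids, phosphates and peptides had changes from -0.07 to 0.11, and their groups overlapped. Lipa, the acid lipase that frees cholesterol from its esters, stood at 5.83, 5.96, 5.51 and 5.40 in hemophagocytes and at 5.65, 5.61, 5.55 and 5.45 on resting arrays. Acp5, the tartrate-resistant acid phosphatase of osteoclasts and splenic macrophages, stood at 6.70, 6.87, 6.89 and 6.97 against 6.76, 6.79, 6.77 and 6.75. For Acp5, 3 hemophagocyte arrays lay above all resting arrays and hemophagocyte 2 below them. Its change of 0.09 had a 95% interval of -0.07 to 0.25. Smpd1, acid sphingomyelinase, kept to 6.78 to 6.84 on hemophagocytes and 6.71 to 6.83 on resting arrays. Asah1 (acid ceramidase), Ppt1 (palmitoyl-protein thioesterase), Acp2 (an acid phosphatase) and Tpp1 (tripeptidyl peptidase) had changes of 0.06, -0.07, -0.01 and -0.05.

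Among the soluble cofactors, most of which deliver lipids to hydrolases or transporters, values spread more widely. Npc2, which binds cholesterol in the lumen and hands it to Npc1, stood at 6.69, 6.98, 7.40 and 6.52 in hemophagocytes and at 6.36, 6.63, 6.34 and 6.53 on resting arrays. Hemophagocyte 6 lay within the resting range and the other 3 above it. The means were 6.90 ± 0.38 and 6.47 ± 0.14 (SD, n = 4 each), a 1.35-fold difference (limma unadjusted p = 0.033, adjusted p = 0.74), and the change was 0.14 without hemophagocytes 3 and 5. Psap, the precursor of the saposins that activate sphingolipid hydrolases, stood at 5.71, 5.74, 6.31 and 5.66 against 5.63, 5.53, 5.66 and 5.44. Its change of 0.29 (SE 0.14) was 0.13 without hemophagocyte 5. Gm2a, the GM2 activator used by beta-hexosaminidase, lay lower in hemophagocytes by its mean, at 6.90, 6.62, 6.95 and 6.93 against 7.06, 6.88, 7.18 and 6.95. Its change of -0.17 (SE 0.10) did not pass. Grn, progranulin, had a change of 0.01.

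Membrane proteins had a median change of 0.06, and 7 of 8 lay above 0. Without hemophagocyte 5 the median was 0.02 with 4 of 8 above 0, and without hemophagocytes 3 and 5 it was -0.05 with 2 of 8 above 0. Cd63, a tetraspanin of late endosomes and lysosomes, stood at 3.47, 5.41, 9.74 and 3.81 in hemophagocytes and at 3.47, 4.05, 3.46 and 3.72 on resting arrays. Hemophagocytes 3 and 5 were high, and hemophagocytes 2 and 6 lay among the resting values. Of the 7 platelet markers, only Pf4 lay more than 0.5 log2 units above its own median on these 2 arrays. It stood at 10.35 and 9.11 there and at 5.49 to 7.41 elsewhere. Of the 10 neutrophil markers, S100a8 lay that far up on both, at 8.02 and 6.41 against 4.60 to 5.12 elsewhere. S100a9 did so on hemophagocyte 3 but not on hemophagocyte 5, where it stood at 6.01. The remaining platelet and neutrophil markers did not. Of the 10 macrophage markers, Cd68, C1qc and Lyz2 lay that far up on both arrays. Adgre1, C1qa and C1qb did so on hemophagocyte 5 only, and the other macrophage markers on neither. On hemophagocytes 3 and 5, Cd68 stood at 9.66 and 10.52 and C1qc at 8.57 and 9.58. The part of these transcripts in the Cd63 values was not tested. The means were 5.61 ± 2.88 and 3.67 ± 0.28 (SD, n = 4 each), and the change of 1.93 had a 95% interval of -0.68 to 4.55 (limma adjusted p = 0.75). It was 0.55 without hemophagocyte 5 and -0.03 without hemophagocytes 3 and 5. Cd63 exceeded the average of the background gauge on hemophagocyte 5 alone. Npc1, the membrane transporter that takes cholesterol from Npc2, stood at 6.20, 5.82, 6.12 and 5.69 against 5.75, 5.76, 5.61 and 5.39. Hemophagocyte 6 lay within the resting range and the other 3 above it, as for Npc2, but the highest array was hemophagocyte 2. The means were 5.95 ± 0.24 and 5.63 ± 0.17 (limma unadjusted p = 0.033, adjusted p = 0.74). All 4 resting values lay below their arrays' mean of the olfactory and vomeronasal receptor probe sets, so that no fold is given. The change was 0.33, and 0.31 without hemophagocytes 3 and 5. The unadjusted p for Npc1 was above 0.05 when any of hemophagocytes 2 and 5 or resting macrophages 5 and 6 was left out, at 0.092, 0.084, 0.064 and 0.095. For Npc2 it was above 0.05 without hemophagocyte 3 or 5 or resting macrophage 3, 5 or 6, at 0.067, 0.062, 0.074, 0.079 and 0.0503.

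Lamp1 and Lamp2, the abundant glycoproteins that line the lysosomal membrane, had their highest value on hemophagocyte 5; their array values are given because of that, a choice made after the values were seen. Lamp1 stood at 6.23, 6.39, 6.997 and 6.36 in hemophagocytes and at 6.40, 6.35, 6.62 and 6.45 on resting arrays. Lamp2 stood at 5.09, 5.25, 5.76 and 5.27 against 5.07, 5.39, 5.10 and 5.46. Their changes were 0.04 (95% interval -0.31 to 0.39) and 0.09 (-0.25 to 0.43), and without hemophagocyte 5 they were -0.12 and -0.05. Lamp2 exceeded the average of the background gauge on 0 of 8 arrays and Lamp1 on all 8. Cln3, a membrane protein lost in juvenile Batten disease, was the 1 membrane protein below 0, at 7.01, 7.05, 7.33 and 7.25 against 7.23, 7.41, 7.22 and 7.45. Mcoln1 (the cation channel TRPML1), Laptm5 (a leukocyte lysosomal protein) and Scarb2 (LIMP-2, the carrier of glucocerebrosidase) had changes of 0.04, 0.03 and 0.08.

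**Figure D4:**
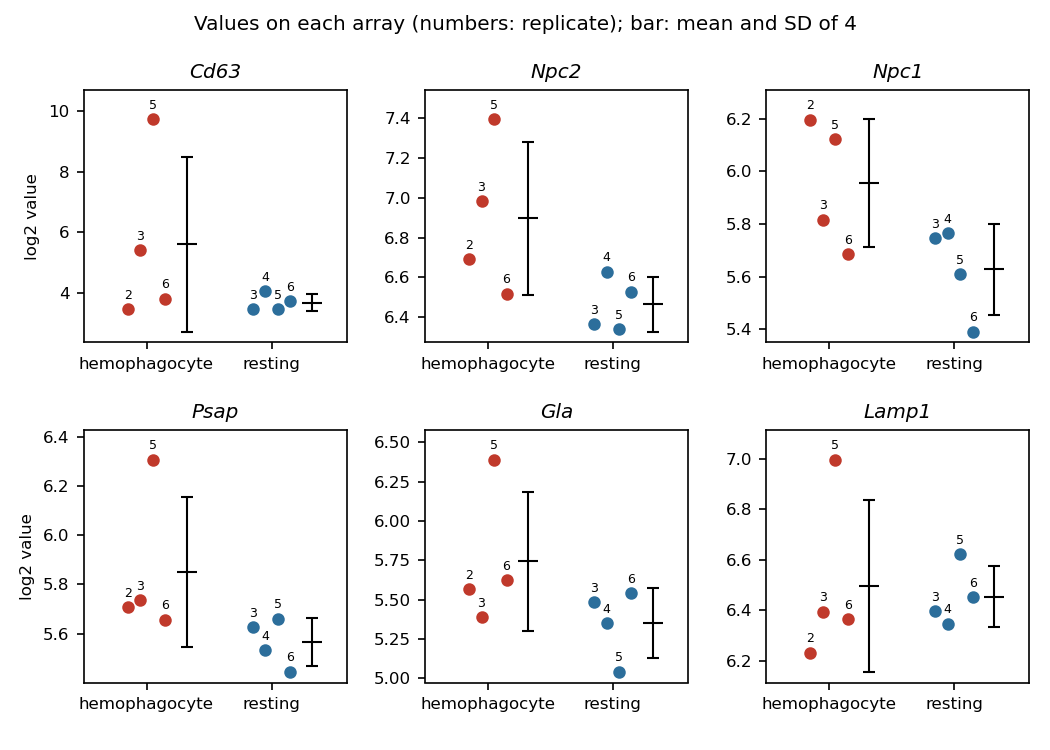
Log2 values of Cd63, Npc2, Npc1, Psap, Gla and Lamp1 on each array, numbered by replicate, with the mean and SD of the 4 arrays of each group; each panel has its own vertical range. Hemophagocyte 5 is the highest point in each panel except that of Npc1, where hemophagocyte 2 is.

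The 7 measured genes of the proton pump did not differ between the groups beyond the spread of the arrays. Their changes ran from -0.10 to 0.12 with a median of 0.04, and 4 were above 0. Each 95% interval lay within 0.5 log2 units of 0. Atp6v0d1, Atp6v0d2, Atp6v1b2 and Atp6v1h exceeded the average of the background gauge on 0 of 8 arrays, Atp6ap1 on 2 and Atp6v1a on 3. Only Atp6v0b exceeded it on all 8. Signal this low can compress differences, so these intervals cannot show that the pump was unchanged. Atp6v1a, the catalytic subunit, stood at 6.25, 6.40, 5.94 and 5.87 in hemophagocytes and at 6.02, 6.05, 5.91 and 5.98 on resting arrays. Atp6v0b, of the membrane sector, stood at 6.70, 6.65, 6.73 and 6.96 against 6.90, 6.52, 6.71 and 6.52. Atp6v0d2, the d subunit form known from osteoclasts and macrophages, stood at 5.75, 5.52, 5.28 and 5.57 against 5.35, 5.63, 5.75 and 5.78, while its widely expressed counterpart Atp6v0d1 had a change of -0.07. Groups overlapped in all of these genes. The intervals for Atp6v0d2 (-0.37 to 0.18) and Atp6v0d1 (-0.26 to 0.13) both include 0. Atp6v1b2, Atp6v1h and Atp6ap1 had changes of 0.04, -0.01 and 0.06.

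Tfeb itself stood at 6.38, 6.21, 6.25 and 6.37 in hemophagocytes and at 6.31, 6.60, 6.34 and 6.29 on resting arrays, a change of -0.08 (95% interval -0.28 to 0.11; limma adjusted p = 0.83). The members whose promoters held TCACGTG had a median change of 0.03 over 12 genes, with 8 above 0. The 24 measured members whose windows lacked it had a median of 0.03, with 15 above 0. The changes of the first set ran from -0.16 to 0.39, so the genes with the string lay inside the range of those without it.

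Other lysosomal genes gave a similar picture, with none passing the threshold in 4 further lists. Of 21 other hydrolases 9 lay above 0 (median -0.03), of 20 other membrane proteins 10 (median -2.0e-04), of 17 other V-ATPase genes 9 (median 0.0053), and of 18 genes of delivery and regulation 7 (median -0.02). Rnaset2a and Rnaset2b, both among the hydrolases above 0, were read from the same probe set, so a single measurement is counted for both. At an unadjusted p under 0.05, the mannosidase Man2b2 was higher (7.16 to 7.28 on hemophagocytes, 7.02 to 7.12 on resting arrays), the thioesterase Ppt2 lower (6.41 to 6.75 against 6.73 to 6.98), and Lamtor2, of the Ragulator complex that anchors mTORC1 to lysosomes, higher (5.27 to 5.87 against 4.96 to 5.23). All 3 had limma adjusted p = 0.74. The groups did not overlap for Man2b2 and Lamtor2, but for Lamtor2 the nearest values were 5.27 and 5.23. Lamtor2 exceeded the average of the background gauge on 0 of 8 arrays, and Man2b2 on all 8. Among all annotated probe sets, 1.02% were higher in hemophagocytes without overlap. At an unadjusted p under 0.05 in limma, 1.81% of them were higher and 4.75% lower. Arsg had a change of -0.17, Ostm1 and Slc38a9 of -0.11 each, Atp6v1e1 of 0.13, Atp6v1g2 of 0.12, Sumf1 of 0.07 and Tfe3, a relative of Tfeb, of 0.08. Atp6v0a2 had a change of 0.59 in the brighter of 2 probe sets and 0.03 in the other. High values on single arrays occurred here too. Cd68, a macrophage glycoprotein of the lysosomal membrane, was high on hemophagocytes 3 and 5 only, and its change was 1.34 over all arrays (limma adjusted p = 0.74) and -0.03 without both of them. Singled out after their values were seen, Atp6v1g1 of the pump's peripheral stalk reached 9.93 on hemophagocyte 3 and 6.13 to 6.61 elsewhere, with the same array high at 9.95 in its second probe set, and Smpdl3a reached 7.18 on hemophagocyte 5 and 5.88 to 6.50 elsewhere.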

How the data were processed

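The authors deposited 1 value per probe set and array, and the range of these values is that of a log2 scale. The submitters' processing notes name Affymetrix Expression Console 1.1. How background was corrected, probes summarised and arrays normalised is not stated in the labels or the value table. No scaling was added to the deposited log2 values. Precision is set by the number of arrays, 4 per group. Of 35556 probe sets, the platform annotation gave 21789 a single symbol and 1621 several, and did not list 12146. All 23410 annotated probe sets were fitted with limma 3.58.1 (lmFit, eBayes, no block) in R 4.3.3 and adjusted by Benjamini-Hochberg, with no filter. Changes are hemophagocyte minus resting. The script was tested on simulated data. Members, lists and tests were chosen with earlier results of these data known. All arrays are given for the 3 members of smallest p per role, for any past the threshold or without overlap, and for any with an array over 1 log2 unit above its own median; from each other list the genes past the threshold, or else the 3 of smallest p, are named. Alternatives covered scaling, filters, prior, array weights, choice of probe set, background covariate, replicate block and left-out arrays.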

Additional observations from a re-analysis of the deposited data

Results flagged for a closer look

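In 6 of 84 sets of 4 arrays (42 members in 2 groups; 7.14%) 1 array lay far from the other 3 by Dixon's criterion, against 5.90% over all annotated probe sets; chance flags about 1 in 20. Psap stood at 6.31 on hemophagocyte 5 and 5.66 to 5.74 on the other hemophagocytes. Atp6ap1, an accessory subunit of the proton pump, stood at 6.12 on the same array and 5.78 to 5.82 on the others. Ids stood at 6.71 on hemophagocyte 3 (6.96 to 7.01 on the others), as did Gm2a at 6.62 (6.90 to 6.95). Atp6v1g2 of the other pump genes stood at 7.57 on hemophagocyte 3 (7.40 to 7.42). On resting macrophage 4, Tfeb stood at 6.60 (6.29 to 6.34 on the other resting arrays) and Atp6v0d1 at 5.97 (5.83 to 5.84).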

How the results depend on the processing

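No member passed limma in any of the 20 alternatives, where the smallest adjusted p among members was 0.62 to 0.96. The count at an unadjusted p under 0.05, 2 with all arrays, was 1 with dim probe sets left out, 1 with array weights, 0 without hemophagocytes 3 and 5, 1 (Atp6v0d2, lower) without hemophagocyte 2 and resting macrophage 3, and 0 to 3 with single arrays left out. The genes were not the same throughout: they were Arsb and Cln3, both lower, without hemophagocyte 5, and Glb1 (lower) and Gla (higher) with the background covariate, while quantile and cyclic loess normalization gave Npc1, Npc2 and Psap. With single arrays left out the median change was -0.0204 to 0.0425 for all members, -0.03 to 0.03 for hydrolases, 0.02 to 0.13 for membrane proteins (-0.05 without hemophagocytes 3 and 5) and -0.04 to 0.10 for V-ATPase. Over all 42 members, 10 changes turned sign without hemophagocyte 5 (Lamp1 and Lamp2 among them), 11 without hemophagocytes 3 and 5, 11 with the background covariate and at most 6 in any other alternative. Among the genes named by rule, changes that turned sign were those of Atp6v0a2 (-0.0904), Atp6v1a (-0.0781), Lipa (-0.102) and Ids (0.051) with the background covariate, Ids without hemophagocyte 3 (0.0011; -0.0991 to 0.0011 with single arrays left out), and Cd63 (-0.0338), Cd68 (-0.0285), Atp6v0d2 (0.0352) and Ids (0.0168) without hemophagocytes 3 and 5; the cause was not tested. With the replicate number as a block, 9 probe sets were called against 1, with 0 members among them, a median member change of 0.04 and 3 members (Npc1, Npc2 and Psap) at an unadjusted p under 0.05. Arrays sharing a number (3, 5 and 6) had deviations correlated at 0.06, -0.02 and 0.13, so the numbers were not taken as pairs, and not every array correlated best with its own number. Signal near background limits how small a change could be seen.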
